A study of Mus musculus with 12 samples.

Results

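The genes described here are named as proteins of the mitochondrial ribosome. They are the genes of the deposited expression table whose symbol begins with Mrpl or Mrps followed by a digit, and 75 of the 15371 genes with a listed value met that rule. Of these, 46 carried the large subunit prefix Mrpl and 29 the small subunit prefix Mrps. The counts include Mrps36, which encodes no protein of this ribosome, and leave out 8 of its proteins that carry other symbols and are described separately. The RNA was that of cardiomyocytes grown in culture out of murine ES cells, line CM7/1, carrying a Hey1 or a Hey2 gene that doxycycline switches on. Hey1 and Hey2 are transcriptional repressors that act downstream of Notch. The 4 libraries were Hey2-line cells given 1000 ng/ml doxycycline for 48 h (induced), Hey2-line control cells without it (uninduced), Hey1-line cells given the same doxycycline treatment (induced), and uninduced Hey1-line control cells. Each group was 1 library, so no difference below has a replicate check and no p-value is given. Doxycycline was given in no RNA library that lacked an inducible Hey gene, and its own effect therefore cannot be told apart from that of Hey1 or Hey2. The 8 chromatin immunoprecipitation samples of the series were not analysed here.

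The mitochondrial ribosome translates the few mRNAs encoded in mitochondrial DNA, all of which specify core subunits of the respiratory chain and ATP synthase. Its RNA comes from the mitochondrial genome, whereas every one of its proteins is encoded in the nucleus, made in the cytosol and imported. Many of the proteins descend from the bacterial ribosome, and others were added during the evolution of mitochondria. In heart muscle, whose cells are dense with mitochondria, defects of several of these genes are known to cause cardiomyopathy in humans.

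The values are RPKM, read numbers divided by the length of the gene model and by library depth, so levels of different genes can be set beside each other. The libraries held between 2274519 and 4137733 reads in listed genes, recovered from the steps of the deposited values. Each induced gene was highest in its own induced library, with Hey1 at 8.59 RPKM in induced and 0.735 RPKM in uninduced Hey1-line cells, and Hey2 at 6.59 RPKM in induced Hey2-line cells and blank in uninduced ones. The lines differed widely in the levels of cell type markers, although all cultures are labelled cardiomyocytes. The 8 cardiomyocyte markers summed to 758.4 and 721.5 RPKM in induced and uninduced Hey2-line cells, against 11139 and 10734 RPKM in induced and uninduced Hey1-line cells. The 6 pluripotent cell markers summed to 281.6 and 260.8 RPKM in the Hey2 line, against 24.6 and 32.8 RPKM in the Hey1 line, in the same order of induced and uninduced cells. The 4 cell cycle markers summed to 165.0 and 164.2 RPKM in the Hey2 line, against 15.8 and 19.7 RPKM in the Hey1 line. No marker of these 3 lists was blank in any library. The 4 fibroblast markers summed to 64.3 and 48.8 RPKM in the Hey2 line, against 34.7 and 39.2 RPKM in the Hey1 line. Of markers of other cell types, the endoderm gene Afp stood at 0.970 and 1.42 RPKM in induced and uninduced Hey2-line cells, against 42.0 and 58.5 RPKM in the Hey1 line, and the neuronal gene Tubb3 at 4.14 RPKM in both, against 18.7 and 16.5 RPKM. The endoderm markers Sox17 and Foxa2, the endothelial markers Pecam1, Cdh5 and Kdr and the neural markers Sox1 and Pax6 did not pass 4.33 RPKM in any library. Sox17, Cdh5, Sox1 and Pax6 were blank in both Hey1-line libraries, and Foxa2 in the uninduced one. In such bulk RNA, fewer cells of a type and less RNA per cell cannot be told apart.

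All 75 genes were listed in all 4 libraries, at levels from 1.47 to 85.1 RPKM. Their summed level was 1085 RPKM in induced and 1169 RPKM in uninduced Hey2-line cells, and 1343 RPKM in induced and 1409 RPKM in uninduced Hey1-line cells. The median gene stood at 12.3 and 14.3 RPKM in the Hey2 line, induced and uninduced, and at 14.1 and 15.8 RPKM in the Hey1 line. The median over all compared genes was 6.44 and 6.40 RPKM in the Hey2 line and 5.07 and 5.42 RPKM in the Hey1 line. The members' median was thus above that of all compared genes in each library. Their summed level was 1.21-fold lower in the uninduced and 1.24-fold lower in the induced Hey2 line than in the Hey1 line. They were backed by a median of 152 and 90 reads per gene in induced and uninduced Hey2-line cells, and 126 and 134 reads in induced and uninduced Hey1-line cells. The lowest number of reads behind a value was 20, and the highest was 606. The gene models were short, with a median length of 1053 bases against 2894 bases for all compared genes.

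The most abundant member was Mrpl12 (Entrez 56282), the protein of the large subunit stalk that contacts translation factors. It stood at 39.0 RPKM in both induced and uninduced Hey2-line cells, and at 85.1 and 84.4 RPKM in induced and uninduced Hey1-line cells. Next by its mean was Mrps28 (Entrez 66230), the small subunit protein bS1m, with the opposite order of the lines. Mrps28 stood at 64.1 and 66.2 RPKM in induced and uninduced Hey2-line cells and at 23.3 and 18.2 RPKM in induced and uninduced Hey1-line cells. The most abundant member therefore depended on the line. It was Mrps28 in both Hey2-line libraries and Mrpl12 in both Hey1-line libraries. The next 4 by their mean over the libraries were Mrpl34, Mrps21, Mrpl24 and Mrps6, all descended from bacterial ribosomal proteins. Mrpl34 and Mrps21 were lower in both Hey2-line libraries than in both Hey1-line libraries, at 17.9 to 21.5 against 47.3 to 50.2 RPKM for Mrpl34 and 18.7 to 20.5 against 44.5 to 47.8 RPKM for Mrps21. Mrpl24 and Mrps6 were higher there, at 36.9 to 45.4 against 24.2 to 24.6 RPKM for Mrpl24 and 36.3 to 36.9 against 24.9 to 29.1 RPKM for Mrps6. The 4 lowest members were Mrpl17, Mrpl1, which forms the mobile stalk beside the exit site for tRNA, Mrpl41 and Mrpl19, and none of them passed 5.12 RPKM in any library. Reads of Mrpl24 and Mrps6 may be shared with the genes Rrnad1 and Slc5a3, which overlap them in the RefSeq annotation.

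**Figure D1:**
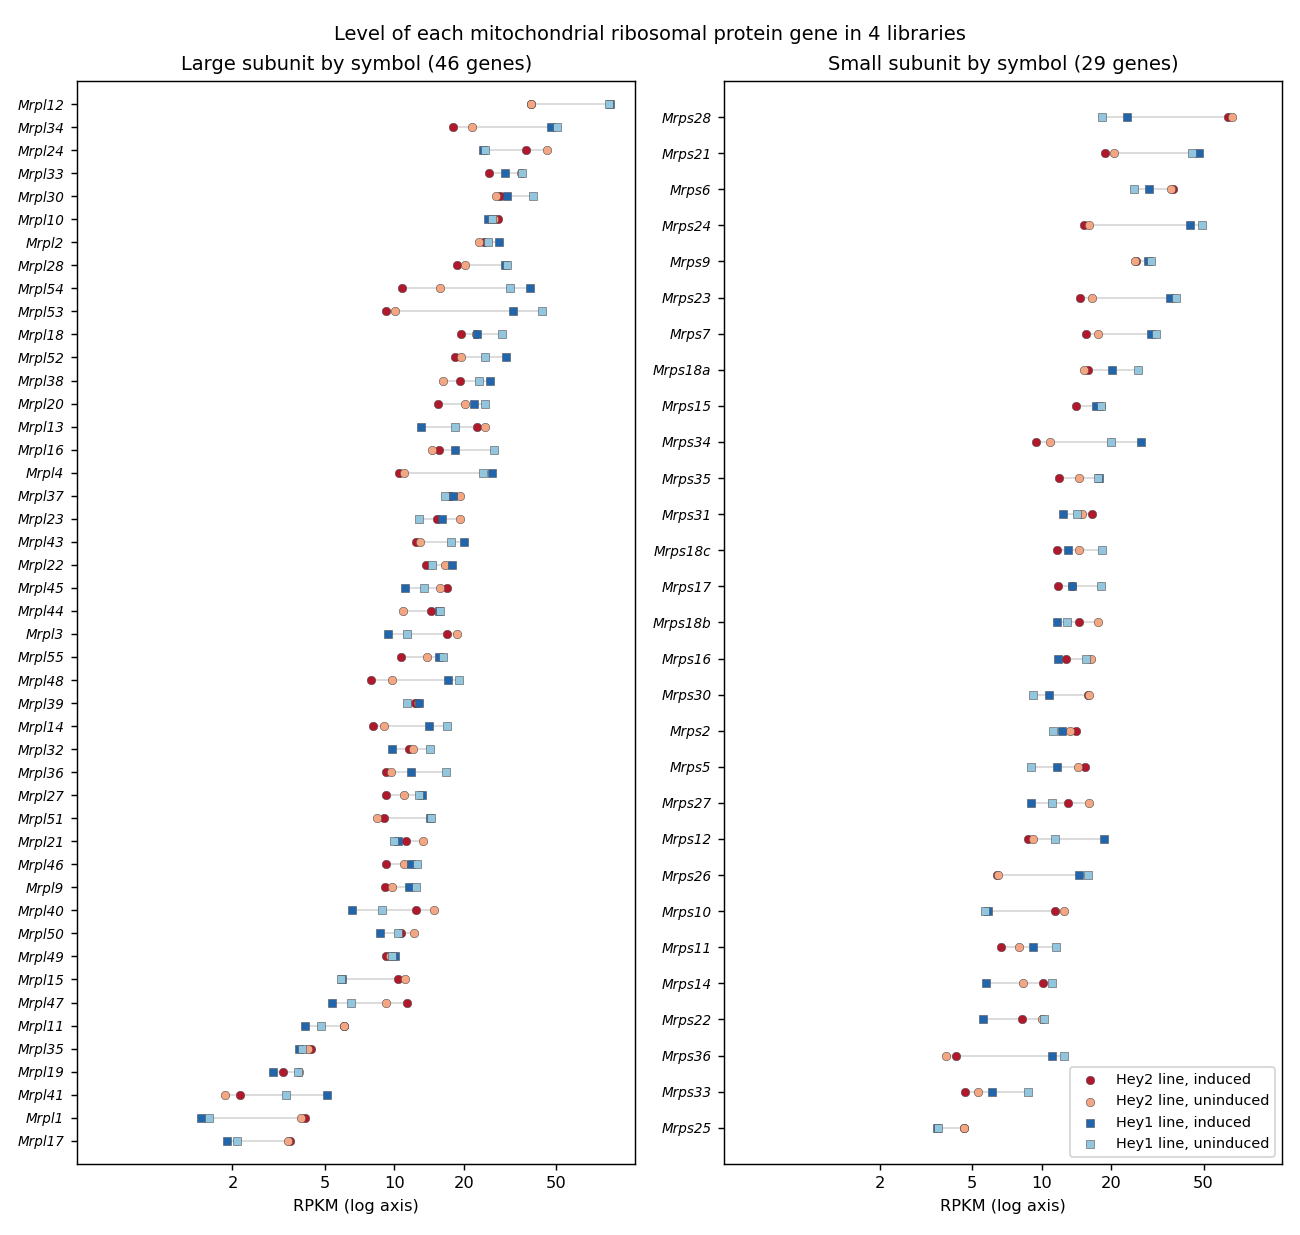
RPKM on a log axis (horizontal) of each of the 75 mitochondrial ribosomal protein genes, ordered by their mean, with the 46 Mrpl genes on the left and the 29 Mrps genes on the right. Red points are Hey2-line and blue squares Hey1-line libraries, dark for induced and light for uninduced cells, and grey lines span the 4 values. Induced and uninduced points of a line lie close together for most genes, while the lines lie apart for some, such as Mrps28, Mrpl53 and Mrps24.

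RefSeq promoters of build GRCm38.p6, taken as the 250 bases before to 50 bases after each start site, were at hand for 66 of the 75 genes. They were searched on both strands for the letters of 4 motifs of factors known to act on mitochondrial genes or on growth. These were CCGGAAG of the ETS family, to which GA-binding protein belongs, AAGATGGC of YY1, GCATGCGC as the core of nuclear respiratory factor 1, and the E-box CACGTG of Myc and related factors. Counts are of genes, each taken to hold a motif if any of its promoter entries did. The ETS letters were held by 24 of the 66 genes (36.4%). The shares were 21.0% of genes listed in all 4 libraries and 9.93% of all genes with promoters of the same length. The YY1 letters were held by 11 members (16.7%), against 5.53% and 3.19%. The nuclear respiratory factor 1 letters were held by 8 (12.1%), against 6.32% and 3.05%. Of these 8, 7 were Mrpl genes, as were 40 of all 66. The E-box was held by 5 (7.58%), against 12.1% and 8.09%. The first 3 motifs were more frequent than in either set and the E-box was not, and 29 members held none of the 4. The genes with ETS letters had a median difference between the uninduced lines of −0.32 on the log2(RPKM + 1) scale, and those without −0.08. For the letters of nuclear respiratory factor 1 these medians were 0.09 (8 genes) and −0.25 (58 genes). They were −0.30 and −0.17 for YY1, and −0.28 and −0.20 for the E-box. All are given as a description. A match of letters is no evidence of binding. No promoter entry was used for Mrpl15, Mrps34, Mrpl4, Mrps28, Mrps35, Mrpl38, Mrpl13, Mrpl19 and Mrpl54.

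The promoters of Mrpl53 and Mrps24 are shown because these members had the largest lower differences of log2(RPKM + 1) between the uninduced lines, and that of Mrps10 because it had the largest higher one on that scale among members with an entry. That of Mrpl33 is shown as the most abundant member with the nuclear respiratory factor 1 letters. All run 5′ to 3′ in the direction of the gene, with motif letters in capitals. In Mrpl53 the capitals mark ETS letters at −59 and, read on the other strand, at −16 from the start site. In Mrps24 they mark YY1 letters at 37 bases into the transcript. In Mrpl33 they mark the letters of nuclear respiratory factor 1 at −12, read on the other strand, and close after them ETS letters at −3. Mrps10 held none of the 4 motifs, so all its letters are in lower case.
Mrpl53 (chr6:83108858-83109157, plus strand): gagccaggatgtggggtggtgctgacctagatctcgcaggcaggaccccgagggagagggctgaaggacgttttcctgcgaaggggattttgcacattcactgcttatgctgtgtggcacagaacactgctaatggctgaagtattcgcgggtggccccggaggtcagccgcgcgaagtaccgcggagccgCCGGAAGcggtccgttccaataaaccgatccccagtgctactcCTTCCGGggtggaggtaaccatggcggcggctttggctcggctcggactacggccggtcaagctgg
Mrps24 (chr11:5707652-5707951, minus strand): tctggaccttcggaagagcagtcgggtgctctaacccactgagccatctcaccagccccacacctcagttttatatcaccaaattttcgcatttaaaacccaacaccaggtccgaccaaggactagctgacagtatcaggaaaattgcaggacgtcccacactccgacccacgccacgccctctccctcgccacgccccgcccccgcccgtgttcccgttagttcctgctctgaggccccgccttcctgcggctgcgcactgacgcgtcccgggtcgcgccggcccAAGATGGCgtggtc
Mrps10 (chr17:47368947-47369246, plus strand): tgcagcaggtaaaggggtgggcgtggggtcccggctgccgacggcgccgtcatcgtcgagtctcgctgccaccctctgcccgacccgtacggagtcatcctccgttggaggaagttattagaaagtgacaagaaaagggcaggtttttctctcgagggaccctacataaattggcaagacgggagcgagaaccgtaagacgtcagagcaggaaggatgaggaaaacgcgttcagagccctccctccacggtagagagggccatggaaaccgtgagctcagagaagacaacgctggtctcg
Mrpl33 (chr5:31613701-31614000, plus strand): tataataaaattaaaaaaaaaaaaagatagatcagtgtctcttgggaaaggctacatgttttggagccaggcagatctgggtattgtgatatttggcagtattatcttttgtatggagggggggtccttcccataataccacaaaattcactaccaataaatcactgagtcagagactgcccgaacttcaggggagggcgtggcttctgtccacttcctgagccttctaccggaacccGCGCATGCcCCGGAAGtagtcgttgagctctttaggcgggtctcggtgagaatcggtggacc

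Induction of Hey1 left most mitochondrial ribosomal protein genes within a small range of their control level. Of the 75, 26 were higher and 49 lower in induced than in uninduced Hey1-line cells at any size, against 38.4% higher and 61.6% lower over the 10991 genes compared. The median difference of log2(RPKM + 1) was −0.08 for the members, −0.06 for the large subunit, −0.08 for the small subunit and −0.06 for all genes. With median ratio scaling these medians were at or just above 0, at 0.01 for members and all genes alike, and 40 members were higher and 35 lower. The size rules of 2-fold and 1.5-fold were set on this scale, so that a gene of low level can pass them as a plain ratio of RPKM and not here. A total of 0 members passed 2-fold in either direction, where 0.0273% of all genes were that much higher and 0.109% that much lower. At 1.5-fold, 1 member was higher and 2 were lower, against 0.455% and 2.01% of all genes. The 95% counting interval of the fold lay above 1 for 3 members and below 1 for 12, and over all genes this held for 4.85% and 13.4%. These shares lay near the background of all genes, with 4.0% and 16.0% for the members. The pluripotent cell, cell cycle and fibroblast markers summed to less in the induced Hey1-line library and the cardiomyocyte markers to slightly more, as given above, and their part in these differences was not tested.

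The 3 members past 1.5-fold on the log2(RPKM + 1) scale with Hey1 induction were small subunit genes. Mrps12 (Entrez 24030), the uS12m protein of the decoding centre, stood at 18.5 RPKM in induced and 11.46 RPKM in uninduced Hey1-line cells. It was 1.62-fold higher, with a 95% counting interval of 1.15 to 2.28, from 95 and 58 reads. Mrps14 (Entrez 64659), or uS14m, stood at 5.75 RPKM in induced and 11.1 RPKM in uninduced cells, and was 1.93-fold lower (1.48 to 2.54). Mrps22 (Entrez 64655), a protein found only in mitochondrial ribosomes, stood at 5.60 RPKM in induced and 10.2 RPKM in uninduced cells, and was 1.83-fold lower (1.28 to 2.63). In the Hey2 line the fold of induced over uninduced cells was 0.954 for Mrps12 (0.623 to 1.48), 1.22 for Mrps14 (0.952 to 1.57) and 0.823 for Mrps22 (0.602 to 1.13), each with 1 inside its interval. Besides Mrps12, the intervals above 1 belonged to Mrpl41 at 1.504-fold (1.08 to 2.11) and Mrps34 at 1.35-fold (1.08 to 1.71), both mitochondria-specific proteins. Mrpl41, of the large subunit, is past 1.5-fold as a ratio only. Mrps28 at 1.28-fold (0.976 to 1.69) and Mrps5, the uS5m protein, at 1.30-fold (0.876 to 1.93) were next among the higher members, with 1 inside their intervals. Among the lower members, the large subunit proteins Mrpl16 and Mrpl32 were each 1.47-fold lower, with intervals of 1.19 to 1.81 and 1.03 to 2.10, and Mrpl53 was 1.33-fold lower (1.07 to 1.65). Mrps18c, at a fold of 0.711 (0.482 to 1.04), had 1 inside its interval. The members' standard deviation of 0.274 exceeded the 0.177 that counting error gives. That of all genes did so too, at 0.231 against 0.173. Spread between cultures was not measured.

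Induction of Hey2 went with slightly lower levels of most members, with 1 inside the counting interval of all but 4 of them. Of the 75, 23 were higher and 52 lower in induced than in uninduced Hey2-line cells at any size, where all genes divided almost evenly, with 49.4% higher and 50.6% lower. The median difference of log2(RPKM + 1) was −0.10 for the members, −0.09 for the large subunit and −0.12 for the small subunit, and −0.00 for all genes. It was −0.10 under both other scalings relative to the median of all genes. A total of 0 members passed 2-fold or 1.5-fold, where 0.0091% of all genes were higher by 2-fold and 0.0364% lower, and 0.546% and 0.691% passed 1.5-fold. The summed level was 1.08-fold lower in induced cells. In the same libraries the fibroblast markers summed to 64.3 RPKM in induced and 48.8 RPKM in uninduced cells, with 4 of 4 higher and their counting intervals above 1. The pluripotent cell markers summed to 281.6 RPKM in induced and 260.8 RPKM in uninduced cells, with 5 of 6 higher. The part of these markers in the members' difference was not tested. The members' standard deviation of 0.171 was no larger than the 0.190 of counting error alone. That of all genes was 0.209, against 0.168 from counting error.

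Only 4 members had a counting interval off 1 with Hey2 induction, 1 above it and 3 below, where 7.99% and 6.63% of all genes had one. Mrpl44, a protein with a ribonuclease III fold, stood at 14.3 RPKM in induced and 10.9 RPKM in uninduced Hey2-line cells, 1.32-fold higher (1.03 to 1.71). It overlaps the gene Wdfy1 in RefSeq. Mrpl33 stood at 25.6 RPKM in induced and 35.1 RPKM in uninduced cells, 1.37-fold lower (1.03 to 1.80), and Mrpl24 at 36.9 RPKM in induced and 45.4 RPKM in uninduced cells, 1.23-fold lower (1.04 to 1.45). Mrps27 was the third lower member, at a fold of 0.812 (0.665 to 0.992), and is named after its values were seen. The member with the largest difference was Mrpl54, at 10.8 RPKM in induced and 15.7 RPKM in uninduced cells, but 1 lay inside its interval of 0.990 to 2.11 for a 1.45-fold lower level. The same held for the next members by size. Among the lower ones these were the large subunit proteins Mrpl20 at a fold of 0.763 (0.564 to 1.04) and Mrpl55 at 0.769 (0.548 to 1.08), and the small subunit protein Mrps15 at 0.783 (0.599 to 1.03). Among the higher ones they were Mrpl47 at 1.24 (0.869 to 1.80), Mrps14 as given above, Mrpl38 at 1.18 (0.959 to 1.47) and Mrps31 at 1.11 (0.896 to 1.38).

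Short members were lower with Hey2 induction by more than long ones, and all genes showed the same relation. The 38 members of up to 1053 bases had a median difference of −0.16 and the 37 longer ones −0.05. Spearman's rho of length and difference was 0.41 over the members and 0.23 over 10980 genes, which are not independent replicates and share both libraries. With the trend of all genes removed in 20 length bins, the members' median lay 0.05 below that of all genes (−0.05), in place of −0.10. With Hey1 induction rho was −0.01 over the members and 0.05 over all genes.

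**Figure D2:**
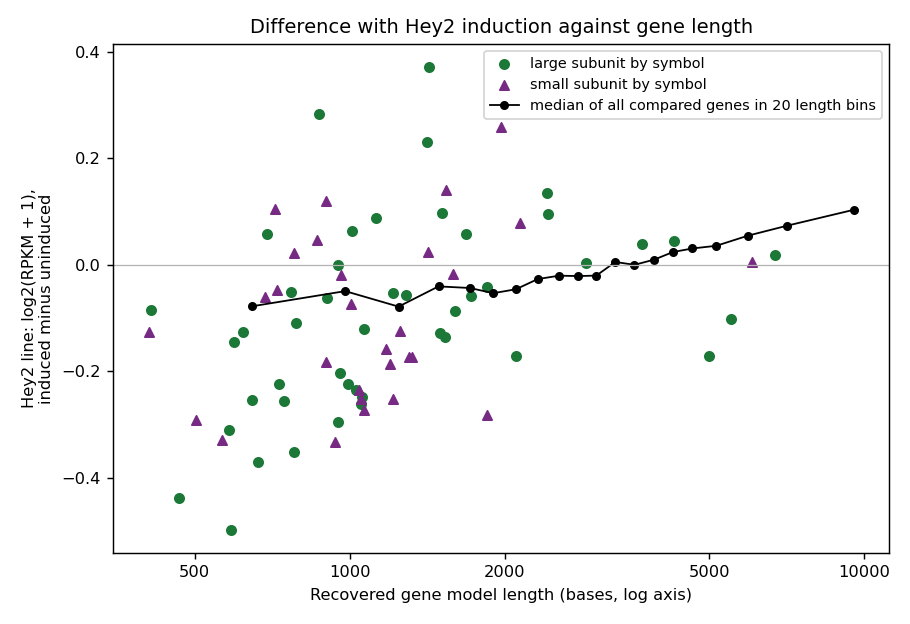
Difference of log2(RPKM + 1) between induced and uninduced Hey2-line cells (vertical) against recovered gene model length in bases on a log axis (horizontal). Green points are Mrpl and purple triangles Mrps genes, and the black line joins the medians of all compared genes in 20 length bins. Short members lie lowest (median −0.16, against −0.05 for long ones), and the line for all genes climbs with length too.

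The inductions had little in common across the members. Both induced libraries had received doxycycline, and they share no library. Of the 75 genes, 32 were lower in both, 6 higher in both, 17 lower with Hey1 and higher with Hey2, and 20 the reverse. Over all genes 61.6% were lower with Hey1 and 50.6% with Hey2, and their split by both inductions was not counted. Pearson's r between the differences was 0.04 and Spearman's rho 0.11 over the 75 genes, and r was 0.04 over all 10991. The Hey2 response minus the Hey1 response had a median of −0.01, with 37 members above 0 and 38 below. Over all 10991 genes its median was 0.07, with 6600 genes above 0 and 4391 below. The widest gap was that of Mrps14, at 1.10 on this scale, followed in size by Mrpl54 at −0.77 and Mrps12 at −0.71. No member had counting intervals on opposite sides of 1 in the 2 lines.

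The lines themselves differed far more than induced and uninduced cells of either line. Between the uninduced libraries, 2 members in the Hey2 line were higher by 2-fold or more and 9 lower by as much, against 19.7% and 13.1% of all genes. At 1.5-fold 9 members were higher and 20 lower, against 34.2% and 21.9% of all genes. The median member was lower in the Hey2 line, at −0.22 on the log2(RPKM + 1) scale, while the median of all genes was higher, at 0.20, so that the members lay 0.42 below it (−0.42). Other scalings moved the median of all genes by more than 0.1, to 0.02 with median ratios and 0.05 with upper quartiles, and relative to it the members then stood at −0.45 with either. With median ratios, 1 member was higher and 15 lower at 2-fold, against 14.8% and 16% of all genes. At 1.5-fold the split was 5 and 27, against 27.6% and 27.1%. With upper quartiles, it was 1 and 12 at 2-fold, against 15.5% and 15.7%, and 5 and 26 at 1.5-fold, against 28.5% and 26.3%. With the length trend of all genes removed, the members' median turned to 0.09. At any size 42 members were then higher and 33 lower, against 58.5% and 41.5% of all genes. The splits were 3 higher and 4 lower at 2-fold, against 20.1% and 12.5%, and 15 and 14 at 1.5-fold, against 34.1% and 21.4%. The members' median still lay below the median of all genes, at −0.11 relative to it. The counting interval lay above 1 for 16 members and below 1 for 29, against 44.1% and 28.8% of all genes.

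The member lower by the most in the uninduced Hey2 line was Mrpl53 (Entrez 68499), a mitochondria-specific large subunit protein whose promoter with a pair of ETS matches is printed above. It stood at 9.17 and 10.1 RPKM in induced and uninduced Hey2-line cells and at 32.5 and 43.2 RPKM in induced and uninduced Hey1-line cells. Between the uninduced libraries it was 4.27-fold lower in the Hey2 line (2.98 to 6.28). It overlaps Ccdc142 in RefSeq, which was itself 2.74-fold lower there at 1.06 against 2.89 RPKM, and how reads in the overlap were assigned is not given. Mrps24 (Entrez 64660), the uS3m protein near the path of the incoming mRNA, overlaps no coding gene. It stood at 15.2 and 16.1 RPKM in induced and uninduced Hey2-line cells and at 43.8 and 49.1 RPKM in induced and uninduced Hey1-line cells. Uninduced, this was 3.06-fold lower (2.43 to 3.88). The other members past 2-fold lower by the size rule were Mrps36 at 3.22-fold (1.961 to 5.55), Mrps26 at 2.44-fold (1.66 to 3.66), Mrpl34 at 2.33-fold (1.80 to 3.04) and Mrps23 at 2.30-fold (1.87 to 2.84). Mrpl4 followed at 2.21-fold (1.71 to 2.88), Mrps21 at 2.17-fold (1.55 to 3.08) and Mrpl12 at 2.16-fold (1.85 to 2.54). Mrps36 aside, they came from both subunits and from both the bacterial and the mitochondria-specific proteins. Mrpl54 was 2.01-fold lower as a ratio of RPKM (1.45 to 2.81), and not past the rule. Mrps23 overlaps Cuedc1, which was 2.78-fold lower.

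The members higher in the Hey2 line were led by Mrps28 and Mrps10. Mrps28 was 3.65-fold higher between the uninduced libraries (2.88 to 4.65), from 275 and 97 reads. Mrps10 (Entrez 64657), the uS10m protein of the small subunit head, stood at 11.4 and 12.5 RPKM in induced and uninduced Hey2-line cells and at 5.86 and 5.73 RPKM in induced and uninduced Hey1-line cells. Uninduced it was 2.19-fold higher (1.54 to 3.13). Mrpl1 was 2.50-fold higher as a ratio of RPKM (1.76 to 3.59), at 3.94 against 1.58 RPKM, but was not past 2-fold on the scale with a pseudocount of 1 RPKM, which narrows differences of low genes. Mrpl24 was 1.84-fold higher (1.51 to 2.25) and Mrpl15 1.89-fold higher (1.60 to 2.24). In all 5 genes both Hey2-line libraries lay above both Hey1-line libraries. The genes were chosen by their difference between the uninduced libraries, so this is a description only. The share over all genes was not counted.

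The differences between the lines had much the same pattern in the induced libraries, which are separate from the uninduced ones. There, 2 members in the Hey2 line were higher by 2-fold or more and 13 lower by as much, against 22.8% and 12.3% of all genes. At 1.5-fold 11 were higher and 20 lower, against 37.0% and 21.1%, and at any size 29 were higher and 46 lower, against 60.1% and 39.9%. The counting interval lay above 1 for 19 and below 1 for 25, against 48.1% and 29.2%. The median was −0.18 for the members and 0.27 for all genes. With median ratio scaling the split was 1 and 17 at 2-fold, against 15.9% and 17.1% of all genes. At 1.5-fold it was 3 and 32, against 28.2% and 28.2%. With the length trend removed the members' median turned to 0.03. The splits were then 5 higher and 6 lower at 2-fold, against 22.7% and 12% of all genes. They were 17 and 15 at 1.5-fold, against 36.8% and 20.5%, and 40 and 35 at any size, against 60.6% and 39.4%. Of the 11 members past 2-fold without induction, 10 were past it again in the same direction. Neither this count nor that of sign changes below was made over all genes. Over the 75 genes the differences without and with induction had a Pearson's r of 0.90 and a Spearman's rho of 0.88, with 0.96 and 0.95 over all genes. The largest lower members were Mrpl54 and Mrpl53, both 3.54-fold lower (2.65 to 4.78 for Mrpl54 and 2.60 to 4.87 for Mrpl53), and the highest on the log2(RPKM + 1) scale was again Mrps28, at 2.75-fold (2.26 to 3.38). Mrpl1 passed the size rule here at 2.80-fold (2.02 to 3.94), in place of Mrps10 at 1.95-fold (1.42 to 2.70). Mrpl47, at 2.13-fold higher (1.44 to 3.22) as a ratio, and Mrpl40, at 1.88-fold higher (1.35 to 2.64), were also among the 5 highest and not past the rule. Mrps34, Mrps12, Mrpl54 and Mrpl48 were past the rule in the lower direction here and not without induction, and Mrpl41 was 2.38-fold lower as a ratio only (1.69 to 3.396). The sign of the difference changed between the pairs of libraries for 7 members. Among these only Mrps14 had counting intervals on opposite sides of 1, being 1.34-fold lower in the Hey2 line without induction (1.03 to 1.75) and 1.76-fold higher with it (1.36 to 2.29). Its lowest level was that of induced Hey1-line cells. The standard deviation over the members was 0.676 without and 0.705 with induction, against 0.195 and 0.172 from counting error. Over all genes it was larger, at 1.09 and 1.12, against 0.181 and 0.159 from counting error.

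**Figure D3:**
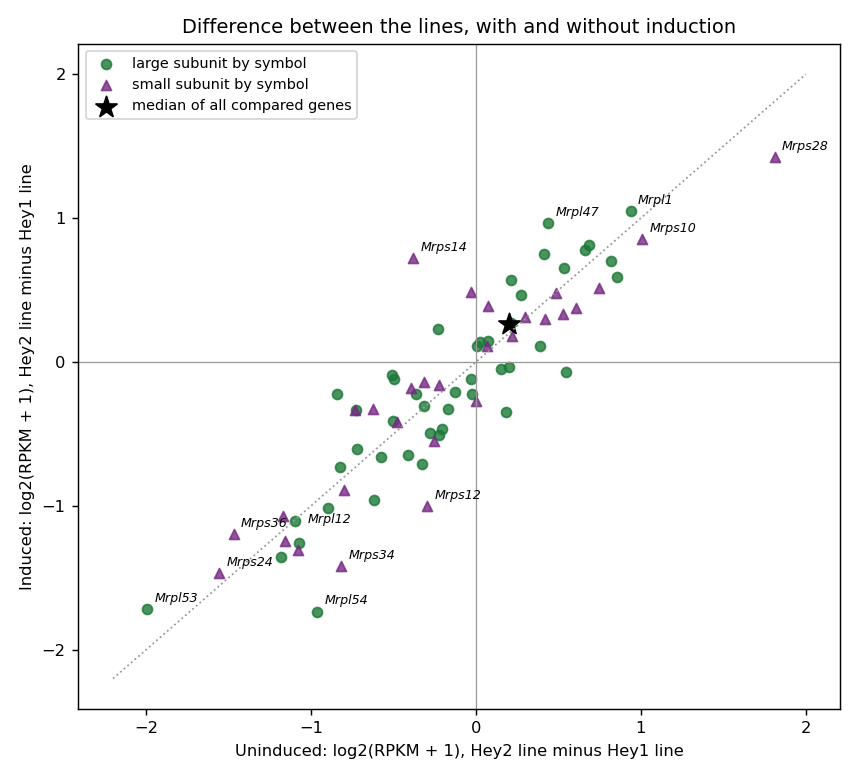
Difference of log2(RPKM + 1) between the Hey2 and the Hey1 line, in uninduced cells (horizontal) and in induced cells (vertical), for 46 Mrpl genes (green points) and 29 Mrps genes (purple triangles). The star is the median of all compared genes (0.20 and 0.27) and the dotted line marks equal differences. Most members lie along the dotted line and below the star, with Mrps28 highest and Mrpl53 lowest without induction. With the length trend of all genes removed the members' medians turned to 0.09 and 0.03.

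Large and small subunit genes were both lower in the Hey2 line by their medians, with the gap between them dependent on the genes kept. Between the uninduced lines the large subunit median was −0.19 and the small subunit median −0.25, and between the induced lines they were −0.21 and −0.16. With at least 50 reads in each library, which left 60 genes, the large minus the small subunit median turned to −0.12 between the uninduced lines. Between the induced lines it became −0.30, with the small subunit median turned to 0.18. With the length trend removed both medians turned above 0 in both pairs. By sum the large subunit genes stood at 651.7 and 706.7 RPKM in induced and uninduced Hey2-line cells, against 836.4 and 881.9 RPKM in induced and uninduced Hey1-line cells. Those of the small subunit stood at 432.9 and 462.0 RPKM in the Hey2 line, against 506.9 and 527.5 RPKM in the Hey1 line. Members of bacterial descent and mitochondria-specific members had medians of −0.16 and −0.29 between the uninduced lines (46 and 28 genes), −0.07 and −0.05 with Hey1 induction, and −0.11 and −0.11 with Hey2 induction.

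Some symbols do not name the place of the protein. Mrps30 (mL65) and Mrps18a (mL66) sit in the large subunit despite their symbol, and Mrps36 (Kgd4) is a subunit of the α-ketoglutarate dehydrogenase complex. Mrps30 stood at 15.9 and 16.1 RPKM in induced and uninduced Hey2-line cells and at 10.8 and 9.18 RPKM in induced and uninduced Hey1-line cells, 1.75-fold higher in the Hey2 line without induction (1.36 to 2.27). Mrps18a stood at 15.8 and 15.3 RPKM in the Hey2 line and at 20.2 and 26.1 RPKM in the Hey1 line, 1.71-fold lower (1.29 to 2.27). Mrps36 stood at 4.29 and 3.87 RPKM in the Hey2 line and at 11.1 and 12.5 RPKM in the Hey1 line, and it has a named pseudogene, so its count is uncertain. The Mrps18 paralogs differed among themselves. Between the uninduced lines Mrps18b (mS40) was 1.36-fold higher in the Hey2 line (1.03 to 1.81), whereas Mrps18c (bS18m) had a fold of 0.795 (0.528 to 1.18) and Mrps18a was lower. With the subunits taken by their place in the ribosome, and the 8 subunits with other symbols added, the uninduced line medians were −0.21 for 52 large and −0.24 for 30 small subunit genes.

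Of these 8 subunits, 2 were higher and 6 lower in the uninduced Hey2 line, against 58.0% and 42.0% of all genes. Mrp63 was 2.09-fold lower in the uninduced Hey2 line (1.41 to 3.16), and Ict1, a peptidyl-tRNA hydrolase built into the large subunit, and Aurkaip1 of the small subunit were each 1.53-fold lower (1.17 to 2.03 for Ict1 and 1.21 to 1.95 for Aurkaip1). Ptcd3, a pentatricopeptide protein of the small subunit, was 1.60-fold higher (1.32 to 1.93). Folds of 0.977 for Gadd45gip1 (0.795 to 1.20), 0.855 for Mrpl42 (0.668 to 1.09), listed as D10Ertd322e, and 1.16 for the GTP-binding protein Dap3 (0.951 to 1.42) had 1 inside their intervals. Chchd1 stood at 23.7 and 26.6 RPKM in induced and uninduced Hey2-line cells and at 25.8 and 35.9 RPKM in induced and uninduced Hey1-line cells. With Hey1 induction its fold was 0.718 (0.560 to 0.919). Gadd45gip1 was the other of the 8 with an interval off 1 in an induction, at 1.20-fold higher with Hey1 (1.004 to 1.44).

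The machinery that the mitochondrial ribosome serves stood apart from it between the lines, and so did the cytosolic ribosome. Of 75 compared nuclear genes of the respiratory chain and ATP synthase, 74 were lower in the uninduced Hey2 line and 1 higher, with a median of −1.56 against −0.22 for the members. Their summed level was 3.44-fold lower in the Hey2 line, at 3414 against 11745 RPKM, while that of the members was 1.21-fold lower, at 1169 against 1409 RPKM. The exception was Cox6b2, an alternative complex IV subunit, at 3.52-fold higher (2.05 to 6.31), and the largest difference the other way was that of Cox6a2, the heart and muscle form of a complex IV subunit, at 65.3-fold lower (42.6 to 105.8). Of 76 cytosolic ribosomal protein genes, 70 were higher and 6 lower, with a median of 0.94 and a summed level 1.83-fold higher, at 9473 against 5165 RPKM. Over all genes 58.0% were higher and 42.0% lower at any size. The members, with 30 higher and 45 lower, thus lay between the lists. Many cytosolic ribosomal protein genes have processed pseudogenes, so their levels are uncertain. The cardiomyocyte marker sum was 14.9-fold lower and the pluripotent cell marker sum 7.94-fold higher in the same libraries, and the part of cell makeup in the members' difference was not tested.

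**Figure D4:**
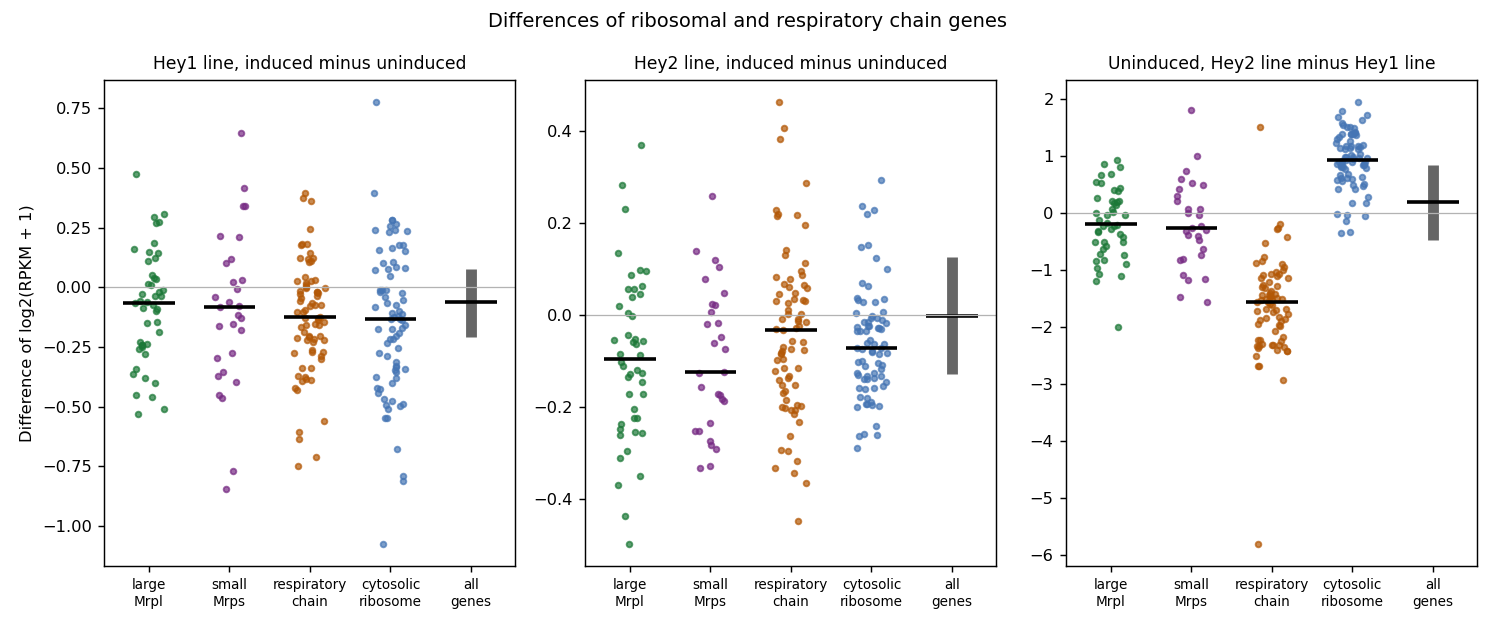
Difference of log2(RPKM + 1) of each gene (points, spread sideways for sight) in 46 Mrpl, 29 Mrps, 75 respiratory chain and 76 cytosolic ribosomal protein genes, with the vertical scale set for each panel. Black bars are medians, and the grey bar spans the middle 50% of all 10991 compared genes. In the inductions (left and middle) the medians of all 4 lists lie close to 0. With Hey1 they were −0.12 for the respiratory chain and −0.13 for the cytosolic ribosome, against −0.06 for all genes. Single genes of these lists ran from −0.75 to 0.39 and from −1.07 to 0.78. With median ratio scaling the members' Hey1 median turned to 0.01. Between the uninduced lines (right) the mitochondrial ribosomal genes, at −0.19 for Mrpl and −0.25 for Mrps, lie between the respiratory chain (−1.56) and the cytosolic ribosome (0.94).

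Other genes that serve mitochondrial translation were found on both sides between the lines, where over all genes 58.0% were higher and 42.0% lower with a median of 0.20. Of 17 translation factor genes, 11 were higher and 6 lower in the uninduced Hey2 line (median 0.12). Oxa1l, which inserts the new proteins into the inner membrane, was 2.56-fold lower (2.19 to 2.998). Guf1, a GTPase that binds the mitochondrial ribosome, was 2.33-fold higher (1.62 to 3.39). Of 23 assembly and rRNA modification genes, 11 were higher and 12 lower (median −0.01). The gene listed as BC051227 was 3.30-fold lower (2.10 to 5.39), and Gtpbp10, a GTPase of large subunit assembly, was 3.77-fold higher (2.65 to 5.46). Of 9 compared genes of mitochondrial DNA transcription and replication, 7 were higher and 2 lower (median 0.43). Ssbp1, the single-strand binding protein of mitochondrial DNA, was 3.04-fold higher (2.18 to 4.27), Tfam, its packaging factor, 2.89-fold higher (2.32 to 3.61), and the RNA polymerase Polrmt was 1.79-fold lower (1.33 to 2.42). Of 16 genes of protein import and mitochondrial mass, 9 were higher and 7 lower (median 0.28), with the import receptor Tomm70a 3.17-fold higher (2.79 to 3.60) and citrate synthase, Cs, 2.65-fold lower (2.43 to 2.90). With Hey1 induction the largest difference among the translation factors was that of the initiation factor Mtif2, at 5.09 RPKM in induced and 8.36 RPKM in uninduced cells, a fold of 0.609 (0.473 to 0.782).

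Of 9 regulators of mitochondrial genes, all named here, 6 were higher and 3 lower in the uninduced Hey2 line. Over all genes 58.0% were higher and 42.0% lower. The regulators whose motifs were searched were among the higher ones. Gabpa and Gabpb1, the subunits of GA-binding protein, were 2.40-fold (1.97 to 2.94) and 3.12-fold (2.39 to 4.10) higher in the uninduced Hey2 line. Nrf1, which encodes nuclear respiratory factor 1, was 2.46-fold higher (1.90 to 3.20), Yy1 2.44-fold higher (2.01 to 2.98) and the coactivator Pprc1 2.48-fold higher (2.13 to 2.90). The coactivators Ppargc1a and Ppargc1b and the receptor Esrra, which drive mitochondrial content in heart and muscle, were 4.99-fold (3.23 to 8.02), 5.58-fold (3.56 to 9.16) and 3.71-fold (2.84 to 4.90) lower. Myc had a fold of 1.24 (0.916 to 1.69). With induction, Gabpa in the Hey2 line was the sole one of these 9 regulators with an interval off 1, at 11.8 RPKM in induced and 10.01 RPKM in uninduced cells, 1.18-fold higher (1.02 to 1.36).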

How the data were processed

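RNA of 4 libraries was sequenced, 1 per group. The authors deposited RPKM values per gene, with reads aligned to mm9 by Bowtie 1.0, per the submitters' processing notes, which also name DESeq and MACS 1.4.1. For the gene annotation, the read counter and strand, the entry is: not given in the sources used here. The authors' deposited signed folds of induced over uninduced cells, recorded as a score, were not used.

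From the steps of the deposited RPKM values whole reads were recovered for 15356 of 15371 genes (99.9%, within 3e-06 of a read; 10.0% with 1 depth wrong by 1%). Genes listed in all 4 libraries with a mean of at least 1 RPKM were compared as differences of log2(RPKM + 1), with 2-fold and 1.5-fold as size rules. Folds are ratios of RPKM with exact 95% conditional binomial intervals from the reads, which cover counting error only. Reads were taken at the smallest gene length that gave whole reads, raised to a multiple for 349 genes. The true reads and length of a gene can thus be a multiple of these, and its interval then too wide. No count model was run, since each group was 1 library. Where rows held the same values in all 4 libraries, only the first of them was kept. Python 3.11.15, NumPy 2.4.6, pandas 2.3.3, SciPy 1.17.1 and Matplotlib 3.10.9 were used, and the steps were tested on simulated data.

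Members and lists were chosen with earlier results of these data known. Named were the 6 highest and 4 lowest members by mean, the 5 largest differences of log2(RPKM + 1) each way in each comparison, every member past 2-fold on that scale, Mrps30, Mrps36 and the Mrps18 paralogs, the subunits with other symbols, and the largest differences of the other lists in each comparison, of which those between uninduced lines, and Mtif2 and Gabpa with induction, are given. Of the members, 19 overlap a coding gene in RefSeq, and Mrpl23, Mrpl27, Mrpl48 and Mrps36 have named pseudogenes, so that their values are uncertain.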

Additional observations from a re-analysis of the deposited data

How the results depend on the processing

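No paired analysis was possible because each group was 1 library. For the same reason no replicate could be left out. Of 252 summary values under the alternatives, 216 stayed within the counting error or 1.5 times of the reported value and 36 did not. In all 12 turned in sign, 11 of them among the values below and the other the large minus the small subunit median between induced lines with the length trend removed, at 0.00569. With median ratio scaling the Hey1 medians were 0.00674 for all members, 0.0141 for the large and 0.00494 for the small subunit. The medians between uninduced lines were −0.43, −0.39 and −0.46, and between induced lines −0.47, −0.51 and −0.46, in the order all, large and small. With upper quartile scaling the Hey1 median was −0.0176, those between uninduced lines −0.40, −0.36 and −0.43, and between induced lines −0.41, −0.45 and −0.40. With a pseudocount of 5 RPKM, 0 members passed 1.5-fold with Hey1, 5 passed 2-fold and 19 passed 1.5-fold between uninduced lines, and 20 passed 1.5-fold between induced lines. With the length trend removed the medians were 0.0945, 0.0973 and 0.0777 between uninduced and 0.0328, 0.0384 and 0.0328 between induced lines, and 7 members passed 2-fold between uninduced lines. With at least 50 reads in each library, which left 60 members, the medians between uninduced lines were −0.0283 for all and −0.00181 for the small subunit, the large minus the small subunit was −0.12, and 7 members passed 2-fold. Between induced lines they were −0.10, −0.12 for the large and 0.18 for the small subunit, the gap was −0.30, and 9 members passed 2-fold. The cause was not tested. Leaving out the 19 members that overlap a coding gene, an alternative chosen after seeing the data, gave −0.22 between uninduced lines. Between the lines, the members' median lay below that of all genes under every alternative run.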
